A study of Danio rerio with 10 samples.

Results

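The genes described here copy the chromosomes before a cell divides or separate them at mitosis. They come from a list of 36 zebrafish symbols, which matched 38 of the 32520 Ensembl genes in the deposited tables because mcm6 and rrm2 are each the symbol of more than 1 gene. Of the 38 genes, 21 act in replication and 17 in mitosis. RNA was sequenced from whole zebrafish larvae at 120 hours post fertilization (hpf), in 5 libraries from aldh2.1-/- fish and 5 libraries from aldh2.1+/+ fish. Within a genotype, each library came from a separate clutch, of which 50 larvae had been pooled. The mutants carry a CRISPR/Cas9 deletion that shifts the reading frame of aldh2.1, which encodes a mitochondrial aldehyde dehydrogenase, and a single mutant line was studied. According to the methods of the study, the fish belong to the line Tg(fli1:EGFP), in which the fli1 promoter drives EGFP in endothelial cells. The larvae of both genotypes were raised in egg water and received no treatment. The comparison asks how the transcript levels of these genes differ between the genotypes.

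Before a cell copies its DNA, the origin recognition complex, Cdc6 and Cdt1 load rings of the proteins Mcm2 to Mcm7 on the chromosomes. Cdc45 and the GINS complex then turn these rings into the active helicase, and PCNA clamps the polymerases to the fork. Cyclin B with Cdk1 drives the cell into mitosis, where Aurora and Polo kinases, motor proteins and the spindle checkpoint order the separation of the chromosomes. The genes of replication are transcribed mainly around the start of S phase under E2F factors, and those of mitosis later under B-Myb and FoxM1, so that their RNA is found mostly in cycling cells. In a larva of this age, cycling cells are known from the rim of the retina, the walls of the brain ventricles, the gut epithelium and the blood-forming tissue. In RNA from pools of whole larvae, fewer cycling cells and less of these RNAs per cell cannot be told apart.

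Libraries held between 19792930 and 20703518 estimated counts, and the factors of the TMM normalization lay between 0.948 and 1.08. Libraries of the same genotype differed by 7.47 to 77.1 times the chi-square per degree of freedom that counting noise alone would give, so the spread between clutches sets the precision. Clutch 1 of the mutant stood apart most, with the highest value of 22% and the lowest value of 22.9% of all genes tested, against 4.55 to 14.0% and 4.97 to 13.9% in the other libraries. The targeted gene aldh2.1 had 2.75 to 7.35 CPM, the count scaled to the size of the library, in aldh2.1-/- larvae and 10.2 to 12.5 CPM in aldh2.1+/+ larvae, without overlap (log2 fold change −1.27, SE 0.21, edgeR adjusted p = 0.134). Its close relative aldh2.2 had 1.57 to 2.16 CPM in aldh2.1-/- larvae and 12.4 to 16.3 CPM in aldh2.1+/+ larvae (log2 fold change −2.95), and whether these genes share reads was not tested. A positive log2 fold change means a higher level in aldh2.1-/- larvae, and p-values are adjusted over all genes tested. Levels between libraries are given below as TMM-normalized CPM, and levels between genes as TPM, which are also scaled for transcript length.

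None of the replication and mitosis genes differed between the genotypes at an adjusted p under 0.05. In the edgeR quasi-likelihood test, 37 of the 38 genes had enough counts to be tested, 0 of them passed this threshold, and their adjusted p-values lay between 0.921 and 0.999. Among all 21532 genes tested, 2 passed it (0.00929%), namely aldh2.2 and the gene ENSDARG00000099154, both on the lower side in the mutants. At an unadjusted p under 0.05 there were 2 of the 37 genes (5.41%), beside 1086 of all genes tested (5.04%). They were mcm2 on the higher side, where 2.83% of all genes tested were found, and 1 of the rrm2 genes on the lower side, where there were 2.21%. DESeq2 called 0 of the 37 genes as well, with the same 2 genes at an unadjusted p under 0.05, while limma on TPM values gave 0 of the 37 genes by either measure. At that unadjusted p, DESeq2 found 5.31% and limma 4.14 to 4.19% of all genes tested. For 0 of the 37 genes did all clutches of one genotype lie above all clutches of the other, which was the case for 0.725% of all genes tested (0.348% with the mutants above and 0.376% with the mutants below).

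The replication genes had log2 fold changes between −0.47 and 0.20 with a median of 0.07, and 14 of the 20 tested genes were on the higher side in aldh2.1-/- larvae. The mitosis genes ranged between −0.11 and 0.08 with a median of 0.01, and 10 of 17 were on the higher side. The median over all genes tested was 0.01, and 52.1% of them were on the higher side. These are counts of small differences that did not pass the test, and the genes of a list share the clutches in which they were measured. The 95% interval of the log2 fold change stayed within ±0.5 for 34 of the 37 genes (91.9%). This held for 58.2% of all genes tested, which were not matched to the listed genes in count level. The 3 exceptions among the listed genes were both rrm2 genes and gins2, a subunit of the GINS complex. The adjusted threshold was stricter than these intervals. The interval of mcm2 left out 0 at an edgeR adjusted p of 0.921. Even aldh2.1, with a log2 fold change of −1.27 (SE 0.21), had an edgeR adjusted p of 0.134. With 5 clutches per genotype, differences wider than these intervals could therefore also stay uncalled.

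**Figure D1:**
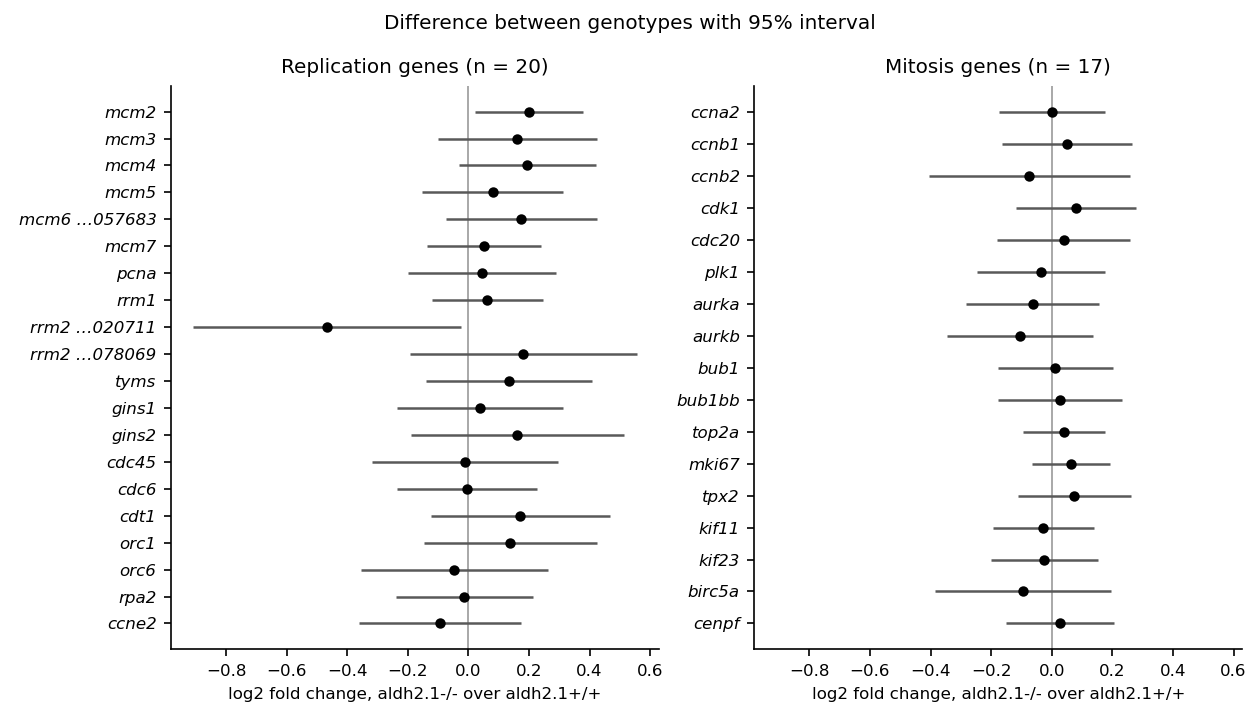
The points are the log2 fold changes of the 20 tested replication genes (left) and the 17 mitosis genes (right), aldh2.1-/- over aldh2.1+/+, and the lines their 95% intervals from the edgeR fit. The intervals of mcm2 (0.02 to 0.38) and of rrm2 ENSDARG00000020711 (−0.91 to −0.03) leave out 0, and all others include it.

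Measured per transcript length, the replication genes spanned a wide range of levels. Averaged over the 10 libraries, pcna had the highest level with 106.6 TPM, followed by mcm7 with 94.5 TPM, both rrm2 genes with 73.1 (ENSDARG00000020711) and 38.8 TPM (ENSDARG00000078069), rrm1 with 28.6 TPM and rpa2 with 21.4 TPM. In CPM the order of the rrm2 genes was the reverse, with 28.5 and 72.4 CPM in aldh2.1-/- and 39.4 and 63.8 CPM in aldh2.1+/+ larvae. The counts of ENSDARG00000020711 per TPM, relative to those of pcna, varied from 0.244 to 0.468 between libraries. The other tested MCM genes lay between 8.83 TPM (mcm2) and 17.9 TPM (mcm4). The second mcm6 gene, ENSDARG00000033231, was the lowest replication gene with 0.075 TPM. The loading factors stood lower, between 2.31 TPM for cdt1 and 5.22 TPM for cdc6, and cdc45 had 1.86 TPM. The mitosis genes were closer together, with cdk1 highest at 21.2 TPM, tpx2 at 20.9 TPM, top2a at 17.2 TPM and mki67 at 15.6 TPM. The lowest of them were ccnb2 at 2.75 TPM and cenpf at 2.84 TPM. The tested genes averaged between 72 (ccnb2) and 2586 (pcna) counts per library.

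The tested genes of the MCM helicase, which unwinds the DNA at the fork, were all on the higher side in aldh2.1-/- larvae. The amounts were small and did not pass the test over all genes. For mcm2 the 5 aldh2.1-/- clutches had 54.8, 53.4, 45.7, 43.8 and 44.2 CPM (clutches 1, 2, 3, 5 and 6), against 45.1, 37.4, 42.9, 43.0 and 42.1 CPM in the aldh2.1+/+ clutches with these numbers. Clutches 1, 2 and 3 of the mutant lay above all aldh2.1+/+ clutches, clutch 3 by little, and clutches 5 and 6 lay within their range. The log2 fold change of mcm2 was 0.20 (SE 0.08, 95% interval 0.02 to 0.38, edgeR adjusted p = 0.921, exact permutation test, two-sided, p = 0.0397), and the smallest p that 5 against 5 clutches allow in this permutation test is 0.00794. For mcm4 the aldh2.1-/- clutches had 61.2, 57.1, 48.8, 40.5 and 44.9 CPM, against 45.7, 41.8, 47.9, 43.7 and 41.6 CPM in the aldh2.1+/+ clutches (log2 fold change 0.19, SE 0.10, 95% interval −0.03 to 0.42, edgeR adjusted p = 0.921, exact permutation test, two-sided, p = 0.198). The genotypes overlapped here too, since clutch 5 of the mutant was the lowest of all 10.

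The remaining MCM genes had log2 fold changes of 0.16 (mcm3, 30.2 ± 5.88 CPM in aldh2.1-/- and 27.0 ± 2.29 CPM in aldh2.1+/+ larvae, SD, n = 5 each), 0.08 (mcm5), 0.17 (the mcm6 gene ENSDARG00000057683) and 0.05 (mcm7). In each of the 5 genes mcm2, mcm3, mcm4, mcm5 and mcm6, clutches 1 and 2 of the mutant both lay above every aldh2.1+/+ clutch, and in 4 of the 5 genes (all but mcm2) clutch 5 of the mutant was the lowest of the 10. The SD of log2 CPM between clutches was 0.15 to 0.28 for these genes in aldh2.1-/- larvae and 0.09 to 0.12 in aldh2.1+/+ larvae. These 5 genes were singled out after their values were seen. Of all genes tested, 11.5% had mutant clutches 1 and 2 above every aldh2.1+/+ clutch, and 3.72% had in addition their lowest value in mutant clutch 5. Of the 37 listed genes tested, 9 had the first pattern and 7 had both. The first was thus not particular to MCM genes, since orc1, gins2, top2a and mki67 had it too. Of these, orc1, top2a and mki67 were also lowest in mutant clutch 5. In CPM, mcm7 did not follow the other MCM genes. Its highest clutch by this measure was clutch 5 of the mutant with 113.5 CPM. The other aldh2.1-/- clutches had 90.1 to 92.5 CPM and the aldh2.1+/+ clutches 81.9 to 101.1 CPM. The counts of mcm7 per TPM, relative to those of pcna, differed between libraries, from 0.731 to 0.950. The summed TPM of the MCM genes was highest in mutant clutch 1 (199.4), against 148.5 in mutant clutch 5. The highest value of mcm7 in any library was 116.6 TPM. Mutant clutch 5 lay below that, since its sum of 148.5 TPM also holds the other MCM genes. Its top rank for mcm7 was thus seen in CPM but not in TPM. The full order of the clutches in TPM was not tested. Without clutch 5 of the mutant, mcm2, mcm4 and mcm6 had an unadjusted p under 0.05 together with the rrm2 gene ENSDARG00000020711, at adjusted p-values of 0.236 or more by edgeR, and 12.2% of all genes tested reached that unadjusted p. Without clutch 2 of the mutant, 0 of the 37 genes did, and the count was 0 also without clutch 2 and without clutch 6 of aldh2.1+/+. Of all genes tested, 3.88, 3.80 and 4.26% reached that p in these fits. Without clutch 1 of the mutant, both rrm2 genes but not mcm2 had an unadjusted p under 0.05, beside 3.64% of all genes tested. The second mcm6 gene, ENSDARG00000033231, had 1 to 5 counts per library (0.05 to 0.23 CPM in aldh2.1-/- and 0.05 to 0.20 CPM in aldh2.1+/+ larvae) and was not tested.

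**Figure D2:**
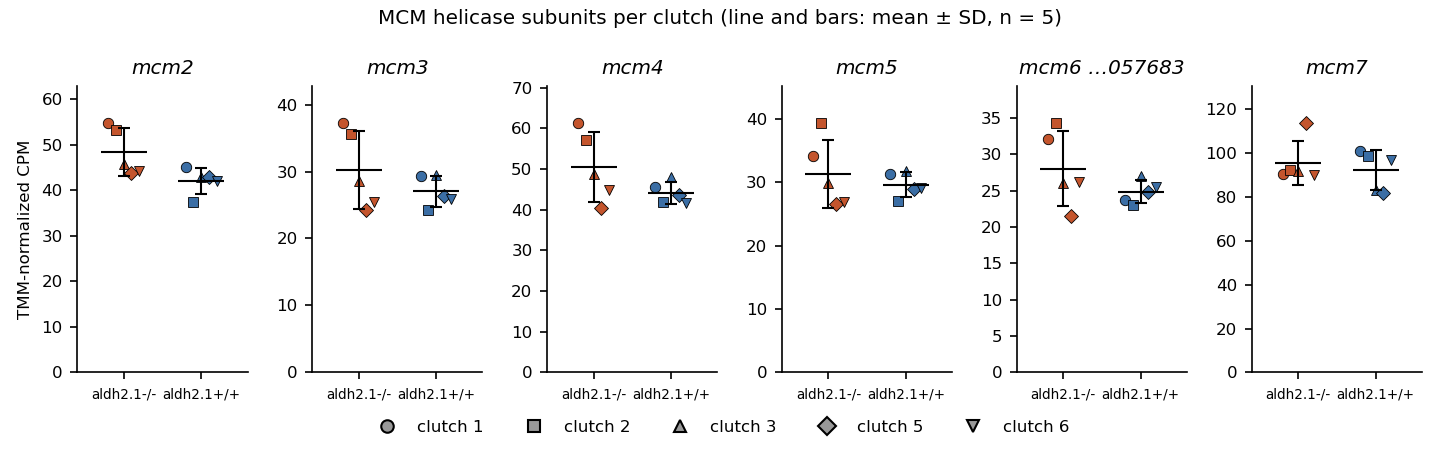
TMM-normalized CPM of the 6 tested MCM genes in each clutch, with aldh2.1-/- in orange and aldh2.1+/+ in blue. The line and the bars give the mean ± SD of 5 clutches. The labels do not say whether equal clutch numbers in both genotypes were paired. Clutches 1 and 2 of the mutant lie above all aldh2.1+/+ clutches from mcm2 to mcm6, and mcm7 has its highest value in clutch 5 of the mutant.

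Markers of skeletal muscle, a tissue made of non-dividing fibres, differed between the same clutches. The mean level of the 9 muscle genes, relative to the mean of the 10 libraries, was 0.38, 0.33, 0.12, −0.36 and −0.02 on the log2 scale in clutches 1, 2, 3, 5 and 6 of the mutant. The aldh2.1+/+ clutches with these numbers had 0.05, −0.08, −0.15, −0.12 and −0.16. All 9 genes were detected, and their summed level ranged from 26470 to 43790 CPM in aldh2.1-/- larvae and from 29420 to 39180 CPM in aldh2.1+/+ larvae. Among the 9 was ENSDARG00000057911, a cardiac-type actin gene with the symbol ACTC1, and the mean level without it was not examined. For the MCM genes the same mean level was 0.25, 0.27, 0.01, −0.11 and −0.08 in aldh2.1-/- clutches, and 0.01, −0.16, −0.01, −0.10 and −0.07 in aldh2.1+/+ clutches. In both lists the mutant clutches 1 and 2 were the highest of the 10 libraries. The genes mcm2 to mcm6 were singled out with these clutches already known to be high, so this part of the match was set in advance. All tested replication genes together stood at 0.22 in mutant clutch 2 but at 0.02 in mutant clutch 1. The latter was below aldh2.1+/+ clutches 1 and 3 with 0.09 and 0.05. Markers of the photoreceptors and the lens ran the other way in the mutant, with −0.46, −0.12, −0.22, 0.38 and −0.02 in its clutches and −0.04 to 0.22 in aldh2.1+/+ clutches (8627 to 19690 CPM and 13950 to 15950 CPM in sum, 8 genes). So did those of the retinal margin, with −0.61, −0.06, −0.17, 0.30 and 0.04 in aldh2.1-/- clutches and −0.00 to 0.23 in aldh2.1+/+ clutches. The 6 liver genes were highest in mutant clutch 1 (0.45) and aldh2.1+/+ clutch 1 (0.44), and summed to 649 to 951 CPM in aldh2.1-/- and 590.6 to 1108 CPM in aldh2.1+/+ larvae. Several tissues thus differed between the clutches, and the part of tissue composition in the MCM values was not tested.

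The factors that load the helicase did not move together. orc1, the largest subunit of the origin recognition complex, had 8.17, 7.01, 6.57, 5.04 and 6.75 CPM in aldh2.1-/- clutches and 5.69, 5.95, 6.02, 5.88 and 6.96 CPM in aldh2.1+/+ clutches. Its highest and its lowest value both fell on mutant clutches, clutch 1 and clutch 5 (log2 fold change 0.14, 95% interval −0.15 to 0.42). orc6, the smallest subunit, had 3.86, 4.43, 3.49, 4.04 and 4.17 CPM in aldh2.1-/- clutches and 5.08, 4.099, 4.23, 3.99 and 3.26 CPM in aldh2.1+/+ clutches. The aldh2.1+/+ clutches 1 and 6 held both extremes of orc6 (log2 fold change −0.05, SE 0.14, 95% interval −0.36 to 0.26, edgeR adjusted p = 0.969), and its sign changed in the limma fits on TPM. The ATPase gene cdc6 and the loader gene cdt1 had log2 fold changes of −0.01 (95% interval −0.24 to 0.23) and 0.17 (−0.12 to 0.47). Those of the helicase activators were −0.01 for cdc45, 0.04 for gins1 and 0.16 for gins2. ccne2, a cyclin of the entry into S phase, had 7.32, 10.4, 8.66, 9.34 and 9.84 CPM in aldh2.1-/- clutches and 9.76, 9.03, 11.02, 10.8 and 7.92 CPM in aldh2.1+/+ clutches. The genotypes overlapped over most of their range (log2 fold change −0.09, SE 0.12, 95% interval −0.36 to 0.18, edgeR adjusted p = 0.936).

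At the fork, pcna, the gene of the sliding clamp, overlapped between the genotypes. It had 113.9, 158.4, 107.5, 135.1 and 132.7 CPM in aldh2.1-/- clutches and 141.2, 116.7, 144.9, 115.1 and 109.7 CPM in aldh2.1+/+ clutches. Mutant clutch 2 was the highest and mutant clutch 3 the lowest of the 10 (log2 fold change 0.05, SE 0.11, 95% interval −0.20 to 0.29, edgeR adjusted p = 0.960, exact permutation test, two-sided, p = 0.762), and without mutant clutch 2 the value was −0.04. rpa2, a subunit of the protein that coats single-stranded DNA, had 19.5 ± 1.96 CPM in aldh2.1-/- larvae and 19.7 ± 2.56 CPM in aldh2.1+/+ larvae (SD, n = 5 each). tyms, which makes thymidylate, had a log2 fold change of 0.13 (95% interval −0.14 to 0.41). rrm1, the large subunit of ribonucleotide reductase, had 72.9, 91.2, 73.5, 70.3 and 67.5 CPM in aldh2.1-/- clutches and 65.9 to 76.3 CPM in aldh2.1+/+ clutches. Only mutant clutch 2 left that range upwards (log2 fold change 0.06, 95% interval −0.12 to 0.24).

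Ribonucleotide reductase makes the deoxynucleotides for DNA synthesis, and its small subunit R2 is the protein that rrm2 encodes. Of the 2 genes listed as rrm2, ENSDARG00000020711 had the lowest fold change of all replication genes. It had 32.7, 26.9, 36.5, 13.5 and 32.8 CPM in aldh2.1-/- clutches, against 41.6, 39.0, 40.0, 35.8 and 40.6 CPM in aldh2.1+/+ clutches. Only mutant clutch 3 reached the aldh2.1+/+ range, and mutant clutch 5 stood far below the rest (log2 fold change −0.47, SE 0.20, 95% interval −0.91 to −0.03, edgeR adjusted p = 0.921, exact permutation test, two-sided, p = 0.0159). The other gene, ENSDARG00000078069, had 47.1, 93.4, 55.3, 89.5 and 76.7 CPM in aldh2.1-/- clutches and 67.3, 56.1, 62.9, 72.7 and 60.2 CPM in aldh2.1+/+ clutches. Here the mutant clutches lay on both sides of the aldh2.1+/+ range, with clutches 2, 5 and 6 above it and clutches 1 and 3 below it (log2 fold change 0.18, SE 0.17, 95% interval −0.19 to 0.55, edgeR adjusted p = 0.926, exact permutation test, two-sided, p = 0.508).

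The counts of these genes depended on each other. Neither gene had whole-number counts in all libraries, but their sum was whole to within 0.01 in each of the 10 libraries (1777 to 2470 counts), as happens when reads that match both genes are divided between them by an estimate. The share of the sum that went to ENSDARG00000020711 was 41.0, 22.3, 39.8, 13.1 and 30.0% in aldh2.1-/- clutches and 38.2, 41.0, 38.9, 33.0 and 40.3% in aldh2.1+/+ clutches. The mutant clutches 2 and 5, in which this share was smallest, had the highest values of the other gene. Summed over both genes, the level was 100.9 ± 15.7 CPM in aldh2.1-/- larvae and 103.2 ± 5.75 CPM in aldh2.1+/+ larvae (SD, n = 5 each). The log2 fold change of the sum was −0.03 (SE 0.10, 95% interval −0.25 to 0.18, edgeR adjusted p = 0.968), a calculation added after seeing the data. In TPM, the gene ENSDARG00000020711 had 73.7 ± 20.1 in aldh2.1-/- larvae and 72.5 ± 6.04 in aldh2.1+/+ larvae, so that the lower value appeared in counts but not in TPM. Whether the transcripts of either rrm2 gene differ between the genotypes cannot be told apart from the division of the shared reads. Of the 38 listed genes, 11 had counts that were not whole in some libraries. Among them was mcm2, in all 10 libraries, and no single partner gene was found for it. The counts of orc6 were not whole in 5 libraries, and their sum with ENSDARG00000076348 was whole. How divided reads affected the values of mcm2 and orc6 was not tested.

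**Figure D3:**
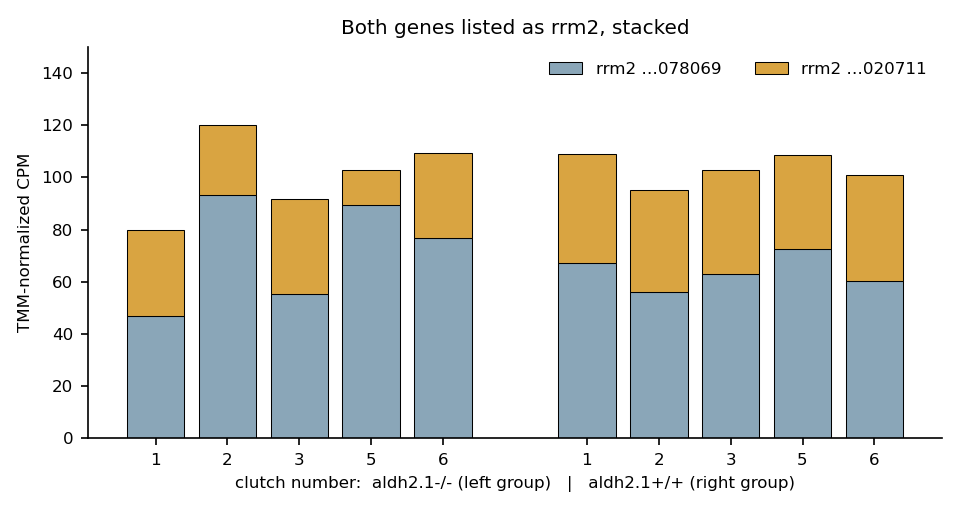
TMM-normalized CPM of both genes listed as rrm2, stacked, in each of the 5 aldh2.1-/- clutches (left) and the 5 aldh2.1+/+ clutches (right); the orange part is ENSDARG00000020711 and the blue part ENSDARG00000078069. The orange part is smallest in mutant clutch 5 (13.5 CPM), while the height of the stack there (103.0 CPM) lies within the aldh2.1+/+ range of 95.1 to 108.9 CPM.

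Among the mitosis genes, the cyclins and their kinase gave differences close to 0. cdk1, the kinase that drives the entry into mitosis, had 21.6, 28.4, 22.4, 23.0 and 26.7 CPM in aldh2.1-/- clutches and 25.3, 22.6, 23.5, 23.2 and 21.0 CPM in aldh2.1+/+ clutches. Mutant clutches 2 and 6 were above the aldh2.1+/+ range and the other 3 within or below its middle (log2 fold change 0.08, SE 0.09, 95% interval −0.12 to 0.28, edgeR adjusted p = 0.936, exact permutation test, two-sided, p = 0.413). The cyclin A gene ccna2 had 28.9 ± 2.02 CPM in aldh2.1-/- larvae and 28.9 ± 2.69 CPM in aldh2.1+/+ larvae (SD, n = 5 each). Its log2 fold change was 0.00 with a 95% interval of −0.18 to 0.18, and that of the cyclin B gene ccnb1 was 0.05 (−0.16 to 0.26). ccnb2, the other cyclin B gene and the lowest of the mitosis genes in TPM, had 3.23, 4.14, 2.98, 3.83 and 3.09 CPM in aldh2.1-/- clutches and 3.20, 4.34, 3.93, 3.59 and 3.12 CPM in aldh2.1+/+ clutches. Both genotypes covered nearly the same range (log2 fold change −0.07, SE 0.15, 95% interval −0.41 to 0.26, edgeR adjusted p = 0.954).

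The Aurora and Polo kinase genes aurka, aurkb and plk1 and the survivin gene birc5a were on the lower side in aldh2.1-/- larvae. They were lower by 0.04 to 0.11 on the log2 scale, with adjusted p-values of 0.936 to 0.965 by edgeR. The kinase genes cdk1 and bub1 were on the higher side, with log2 fold changes of 0.08 and 0.01. Of all 17 mitosis genes 7 were on the lower side, and of all genes tested 52.1% were on the higher side. aurkb, the kinase of the chromosomal passenger complex, had 12.9, 14.8, 13.3, 15.3 and 13.7 CPM in aldh2.1-/- clutches and 17.9, 16.2, 11.7, 14.3 and 15.1 CPM in aldh2.1+/+ clutches. All mutant clutches lay within the aldh2.1+/+ range (log2 fold change −0.11, SE 0.11, 95% interval −0.34 to 0.13, exact permutation test, two-sided, p = 0.437). birc5a, a survivin gene whose protein is a partner of Aurora B in that complex, had 4.94, 5.06, 4.099, 4.99 and 5.77 CPM in aldh2.1-/- clutches and 6.25, 4.73, 5.56, 5.43 and 4.56 CPM in aldh2.1+/+ clutches. Only mutant clutch 3 fell outside the aldh2.1+/+ range (log2 fold change −0.09, SE 0.13, 95% interval −0.38 to 0.20, exact permutation test, two-sided, p = 0.421). The log2 fold changes of aurka, a kinase of the spindle poles, and of plk1, the Polo kinase, were −0.06 and −0.04. plk1 reached 33.8 CPM in mutant clutch 2, against 23.8 to 25.7 CPM in the other aldh2.1-/- clutches and 25.7 to 29.1 CPM in aldh2.1+/+ clutches.

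For the genes of the spindle checkpoint, bub1 and bub1bb, and for cdc20, which activates the ubiquitin ligase at the end of metaphase, the log2 fold changes were 0.01, 0.03 and 0.04. Their 95% intervals together covered −0.18 to 0.26. tpx2, a spindle assembly factor and an activator of Aurora A, had 40.7, 48.5, 43.8, 36.7 and 35.99 CPM in aldh2.1-/- clutches and 41.2, 40.4, 36.6, 36.9 and 40.2 CPM in aldh2.1+/+ clutches. The mutant clutches reached further up and slightly further down than the aldh2.1+/+ clutches (log2 fold change 0.07, SE 0.09, 95% interval −0.11 to 0.26, edgeR adjusted p = 0.936, exact permutation test, two-sided, p = 0.5). The kinesin genes kif11 and kif23, motors of the bipolar spindle and of the midzone, had −0.03 and −0.02, and the kinetochore gene cenpf had 0.03.

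The most precisely measured genes of both lists were mki67, whose protein coats mitotic chromosomes and serves as a marker of cycling cells, and top2a, the topoisomerase that untangles sister chromatids. mki67 had 116.7, 122.1, 120.1, 107.3 and 127.3 CPM in aldh2.1-/- clutches and 113.9, 114.2, 110.5, 115.2 and 114.0 CPM in aldh2.1+/+ clutches. Of the mutant clutches, 4 lay above all aldh2.1+/+ clutches and clutch 5 lay below them (log2 fold change 0.06, SE 0.06, 95% interval −0.06 to 0.19, edgeR adjusted p = 0.924, exact permutation test, two-sided, p = 0.198). top2a had a log2 fold change of 0.04 (95% interval −0.10 to 0.18). The SD of log2 CPM within a genotype was 0.07 for mki67, 0.14 at the median of the mitosis genes and 0.18 at the median of the replication genes, while the median over all genes tested was 0.22. Genes were not matched in count level for this comparison. The spread was larger in aldh2.1-/- than in aldh2.1+/+ larvae for 26 of the 37 genes (70.3%) and for 71.9% of all genes tested.

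The levels of the replication and mitosis genes differed between clutches of the same genotype. In mutant clutch 2, 19 of the 20 replication genes and 15 of the 17 mitosis genes were above their own median over the 10 libraries, while 49.8% of all genes tested were. The exceptions were the rrm2 gene ENSDARG00000020711 among the replication genes, and bub1bb and cenpf among the mitosis genes. This clutch held the highest value of 16 of the 37 genes (43.2%, against 9.14% of all genes tested). Clutch 1 of aldh2.1+/+ was above the median for 16 of the 20 replication and 11 of the 17 mitosis genes. At the other end, the aldh2.1+/+ clutches 2 and 6 were above the median for 3 of the 20 replication genes each, and mutant clutch 5 held the lowest value of 12 of the 37 genes (32.4%, against 13.9% of all genes tested).

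**Figure D4:**
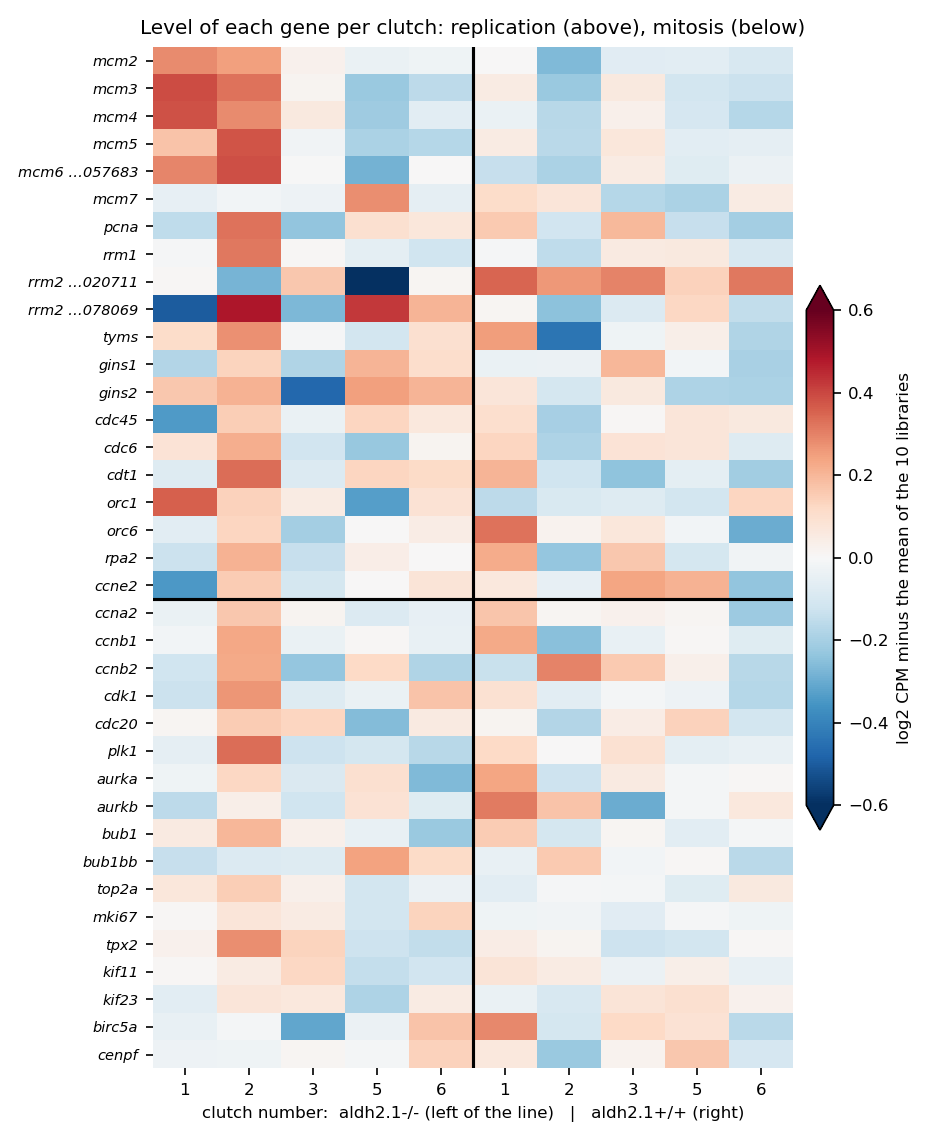
Log2 CPM of each tested gene (rows) in each clutch (columns) minus the mean over the 10 libraries, with aldh2.1-/- left of the vertical line and aldh2.1+/+ right of it, and replication genes above the horizontal line. The colour scale ends at ±0.6, and mutant clutch 2 is the column with the highest mean level (0.22 for replication and 0.13 for mitosis genes).

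On average, the replication genes stood at 0.02, 0.22, −0.08, −0.07 and 0.03 on the log2 scale relative to the mean of the 10 libraries in aldh2.1-/- clutches, and at 0.09, −0.13, 0.05, −0.03 and −0.09 in aldh2.1+/+ clutches. The mitosis genes stood at −0.04, 0.13, −0.03, −0.04 and −0.03 in aldh2.1-/- clutches and at 0.09, −0.03, −0.00, 0.01 and −0.07 in aldh2.1+/+ clutches. Mutant clutch 2 and aldh2.1+/+ clutch 1 were the highest of their genotype in both lists. Without mutant clutch 2, the median log2 fold change of the replication genes was 0.04 and that of the mitosis genes −0.04.

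Genes of the same pathways outside the list differed little between the genotypes as well. Of 43 further replication genes, among them the polymerase, primase and clamp loader subunits, 25 were on the higher and 18 on the lower side in aldh2.1-/- larvae, with a median log2 fold change of 0.02 and 0 genes past an adjusted p of 0.05 in edgeR. One of them, slbp, which binds the stem-loop of histone mRNAs, had an unadjusted p under 0.05 (2.33% of the list, against 5.04% of all genes tested). It had 10.96, 13.7, 12.2, 12.4 and 13.9 CPM in aldh2.1-/- clutches and 10.6, 11.9, 10.0, 11.5 and 10.6 CPM in aldh2.1+/+ clutches, so that 4 mutant clutches lay above all aldh2.1+/+ clutches (log2 fold change 0.21, SE 0.09, 95% interval 0.00 to 0.41, edgeR adjusted p = 0.921). Of 56 further mitosis genes, 26 were on the higher and 30 on the lower side, with a median of −0.00 and 0 genes at an unadjusted p under 0.05. In this list 1 gene, zwilch of the kinetochore complex with Rod and Zw10, had no overlap between the genotypes, with 2.89 to 3.14 CPM in aldh2.1-/- and 2.40 to 2.80 CPM in aldh2.1+/+ larvae, beside 0.725% of all genes tested without overlap. Its log2 fold change was 0.22 (SE 0.13, edgeR adjusted p = 0.921), and it was chosen after its values were seen.

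In mutant clutch 2, 40 of the 43 further replication genes and 43 of the 56 further mitosis genes were above their own median, and in aldh2.1+/+ clutch 1 there were 34 and 41. Mutant clutch 3 had 6 of the 43 replication genes above the median, and aldh2.1+/+ clutch 6 had 9. The summed level of the 43 genes was 661.5, 783.3, 649.3, 710.8 and 744.7 CPM in aldh2.1-/- clutches and 748.9, 671.4, 738.6, 707.2 and 678.5 CPM in aldh2.1+/+ clutches. Both genotypes had nearly the same mean, 709.9 ± 56.2 CPM in aldh2.1-/- and 708.9 ± 34.7 CPM in aldh2.1+/+ larvae (SD, n = 5 each).

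**Figure D5:**
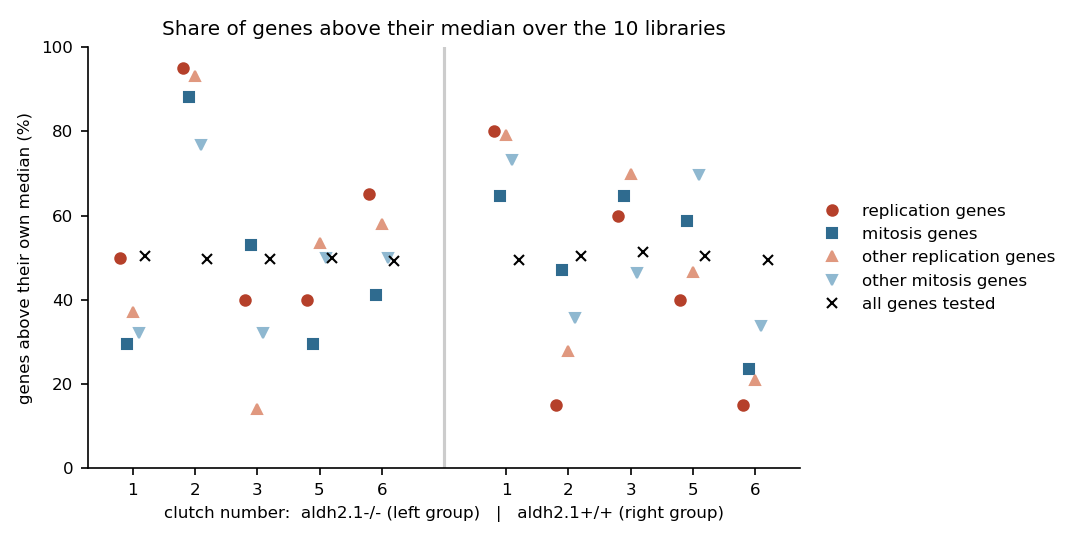
Share of genes above their own median over the 10 libraries, in percent, in each aldh2.1-/- clutch (left) and aldh2.1+/+ clutch (right), for the replication and mitosis genes, the further genes of both pathways and all genes tested. All genes tested lie between 49.1 and 51.4% in every clutch, the replication genes between 15 and 95%.

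The regulators of the G1 phase and of cell cycle transcription gave no gene past the threshold either. Of 36 genes, 35 were tested, 19 were on the higher and 16 on the lower side, and 0 had an unadjusted p under 0.05. The D-type cyclin gene ccnd1 had a log2 fold change of −0.03 (95% interval −0.17 to 0.10). The genes of the mitotic transcription factors, foxm1 and mybl2b, had 0.25 and −0.15, neither with an unadjusted p under 0.05. cdkn1a, the inhibitor p21 that p53 induces, had 16.8, 16.2, 11.5, 15.0 and 12.8 CPM in aldh2.1-/- clutches and 15.5, 10.2, 9.79, 8.67 and 13.6 CPM in aldh2.1+/+ clutches. The genotypes overlapped (log2 fold change 0.33, unadjusted p = 0.069 and edgeR adjusted p = 0.921). The log2 fold changes of this list ranged from −0.29 to 0.33, and its edgeR adjusted p-values were 0.921 or more. The genes named here were picked with their values known.

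Markers of the tissues that hold cycling cells at this age were detected, with 16 neural progenitor genes, 8 genes of the retinal margin, 8 of the blood progenitors and 8 of the intestine, and edgeR gave 0 of them an adjusted p under 0.05. The summed level of the neural progenitor genes was 815.1 to 1222 CPM in aldh2.1-/- and 1056 to 1133 CPM in aldh2.1+/+ larvae. The retinal margin genes reached 238.8 to 420.2 CPM in aldh2.1-/- and 337.8 to 401.7 CPM in aldh2.1+/+ larvae. In mutant clutch 2 both sums, 1114 and 328.4 CPM, lay inside the range of the other clutches, and mutant clutch 1 was the lowest of all 10 in both. The 8 blood progenitor genes summed to 136.7 to 161.3 CPM in aldh2.1-/- and 149.1 to 160.4 CPM in aldh2.1+/+ larvae, lowest in mutant clutch 1. Their mean level, on the log2 scale relative to the mean of the 10 libraries, ran otherwise. It was the highest of all 10 in mutant clutch 1 (0.23) and the lowest in mutant clutch 5 (−0.17), with 0.01 in mutant clutch 2. The 8 genes of the intestine summed to 446.8 to 599.2 CPM in aldh2.1-/- and 343.7 to 1336 CPM in aldh2.1+/+ larvae. Their highest sum fell on aldh2.1+/+ clutch 1, the clutch of that genotype with the highest mean level of the replication and mitosis genes. In mutant clutch 2, where that mean level was the highest of all libraries, the intestine genes summed to only 474.4 CPM. Of the germ line genes, ddx4, nanos3, dnd1, piwil1 and dazl stayed under 0.75 CPM in every library. With ca15b and 2 genes listed as tdrd7a, the 8 germ line genes summed to 7.16 to 9.52 CPM in aldh2.1-/- and 6.54 to 9.03 CPM in aldh2.1+/+ larvae. Of the 8, 1 had enough counts to be tested. The part of these tissues in the clutch differences was not tested.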

How the data were processed

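The authors extracted RNA from pooled whole larvae, sequenced it on a BGISEQ instrument and deposited, per clutch, a table of expected counts and TPM values per gene. The submitters' processing notes name Trim Galore 0.6.4, kallisto 0.4.6 and the build GRCz11; the annotation release is not given in the sources used here. The deposited estimated counts are kallisto's division of reads among transcripts, summed per gene, and need not be whole; the deposited TPM values are the same estimates scaled by the authors for transcript length and library. Estimated counts were rounded, genes with low counts were removed with filterByExpr, and the genotypes were compared with the robust quasi-likelihood test of edgeR 4.0.16 (R 4.3.3) after TMM normalization, with Benjamini-Hochberg adjustment over all 21532 genes tested. Clutches are the replicates. Single values were also compared by an exact permutation test over the 252 splits of the clutches. Log2 CPM used a prior count of 2. Figures were made with matplotlib 3.10.9.

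The listed genes, the further lists and the marker lists were chosen with earlier results of these data known. Full values are given for genes with an unadjusted p under 0.05 or without overlap, for the 3 highest and 3 lowest fold changes and the highest and lowest TPM of each class, and for genes of the further pathway lists with an unadjusted p under 0.05. The regulators of the G1 phase and of transcription that are named were chosen outside this rule. Alternatives were DESeq2 1.42.0, limma 3.58.1 on log2 TPM with a pseudocount of 1 or 0.1, library size alone, 2 other filters, a replicate block, leaving out each clutch, and, added after seeing the data, the sum of both rrm2 genes. The edgeR steps were tested on simulated data. No sequences are shown.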

Additional observations from a re-analysis of the deposited data

Results flagged for a closer look

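In 9 of the 78 groups of 5 clutches examined (11.5%), the highest or lowest clutch stood apart. Its gap to the nearest clutch was over 0.71 of the whole range of the group. Chance gives this in about 1 of 20 groups if these are independent and normally distributed. The groups here share the same 10 libraries, and the mean of the mitosis genes includes single genes also examined. The 11.5% can therefore not be set against that rate. Of the 9 groups, 4 were high values of mutant clutch 2. In that clutch rrm1 had 91.24 CPM, with 67.5 to 73.5 CPM in the other aldh2.1-/- clutches. ccnb1 had 19.67 CPM there, with 16.2 to 16.8 CPM in the others, and plk1 33.84 CPM, with 23.8 to 25.7 CPM in the others. The mean level of the mitosis genes was 0.131 in mutant clutch 2, on the log2 scale relative to the mean of the 10 libraries, and −0.041 to −0.028 in the other aldh2.1-/- clutches. Among the other aldh2.1-/- clutches, mcm7 was high in clutch 5 with 113.5 CPM (90.1 to 92.5 CPM in the others), gins2 low in clutch 3 with 2.515 CPM (3.952 to 4.198 CPM) and cenpf high in clutch 6 with 26.83 CPM (23.9 to 24.6 CPM). Among the aldh2.1+/+ clutches, orc1 was high in clutch 6 with 6.957 CPM (5.69 to 6.02 CPM) and mki67 low in clutch 3 with 110.5 CPM (113.9 to 115.2 CPM).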

How the results depend on the processing

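The number of listed genes past an adjusted p of 0.05 was 0 under every alternative run. The number at an unadjusted p under 0.05, 2 in the edgeR fit, was 1 with library size alone and 0 with limma on log2(TPM + 1) and on log2(TPM + 0.1). The shares of all genes tested at that p were 5.13, 4.19 and 4.14%. Over all genes tested, 2 passed the adjusted threshold in edgeR, against 22 with DESeq2 and 4 with no filter beyond 1 count. Leaving out each clutch gave 2 to 48 genes in all and 0 to 4 listed genes at an unadjusted p under 0.05, both highest without mutant clutch 5. In these fits 3.64 to 12.2% of all genes tested had an unadjusted p under 0.05. With the clutch number as a replicate block, 1 gene in all passed and 1 listed gene had an unadjusted p under 0.05, beside 4.29% of all genes tested. The deviations of clutches of equal number had correlations of −0.129 to 0.109, with 1 of 5 best with its own number. The labels do not say whether equal numbers were paired. These correlations cannot exclude a pairing, since large differences between clutches could hide it. For the 13 tested genes given in full, 217 of 221 alternative values kept their direction. orc6 turned to 0.0245 and 0.0314 in the limma fits with pseudocounts of 1 and 0.1, and ranged from −0.1215 to 0.0368 when clutches were left out. pcna ranged from −0.0382 (without mutant clutch 2) to 0.1051. rrm2 ENSDARG00000078069 became −0.0338 when summed with the other rrm2 gene. The value of mcm2 ranged from 0.15 to 0.24 without single clutches, and that of rrm2 ENSDARG00000020711 from −0.57 to −0.29, and in the other settings from −0.53 to −0.02, the last in TPM. The causes were not tested. With library size alone the median over all genes moved to 0.04. The listed genes tested averaged 72 or more counts per library, and the spread between clutches limited the precision.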

Other observations

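Among the tissue markers, 5 genes had an unadjusted p under 0.05 in edgeR, and they were chosen after their values were seen. They were 2 of 9 muscle genes (22.2%), 1 of 8 blood progenitor genes (12.5%), 1 of 6 liver genes (16.7%) and 1 of 8 photoreceptor and lens genes (12.5%). The share over all genes tested was 5.04%. Of the 16 neural progenitor, 8 retinal margin and 8 intestine genes and the 1 tested germ line gene, 0 had such a p. The muscle gene ENSDARG00000030270 (symbol TNNT3), a fast troponin T, had 192.8 to 288.9 CPM in aldh2.1-/- and 153.8 to 192.7 CPM in aldh2.1+/+ larvae, without overlap (log2 fold change 0.50, SE 0.11, edgeR adjusted p = 0.583). Of all genes tested, 0.725% had no overlap. A cardiac-type actin gene, ENSDARG00000057911, had 10.3 to 25.3 CPM in aldh2.1-/- and 9.66 to 15.4 CPM in aldh2.1+/+ larvae (log2 fold change 0.65). It carries the symbol ACTC1, while actc1b itself is another gene, ENSDARG00000099197. For alas2, the first enzyme of heme synthesis in red cells, the values were 5.67 to 15.9 CPM in aldh2.1-/- and 5.97 to 9.27 CPM in aldh2.1+/+ larvae (0.57). The liver fatty acid binding protein gene fabp10a had 101.9 to 133.8 CPM in aldh2.1-/- and 124.1 to 235.7 CPM in aldh2.1+/+ larvae (−0.50), and pde6c, a phosphodiesterase of the cones, 400.9 to 798.3 CPM in aldh2.1-/- and 604.5 to 748.3 CPM in aldh2.1+/+ larvae (−0.35). The edgeR adjusted p of the other 4 genes was 0.921, and their genotypes overlapped.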
